A study of Homo sapiens with 8 samples.

Results

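Adhesion G protein-coupled receptors (adhesion GPCRs) were followed in H9 cells, a widely used human embryonic stem cell line, during differentiation toward blood. Members were the genes whose single annotated symbol begins with ADGR, together with CELSR1, CELSR2 and CELSR3, and 32 of the 19775 genes with a single-symbol probe set on the array met this. Of these, 29 are protein-coding receptor genes, 2 are long noncoding RNA genes (ADGRB3-DT and ADGRF5-AS1) and 1 is a pseudogene (ADGRF2P). The reference gene table lists 31 human receptor genes of the family, and ADGRF3 and ADGRG5 were not analysed here because no probe set carries their symbol alone. Each group had 2 arrays. They held KDR+CD31+ H9 cells sorted by flow cytometry at day 4, day 6 and day 8 of differentiation, and undifferentiated H9 cells of day 0 that were not sorted. KDR is the main receptor for vascular endothelial growth factor, and CD31 is the endothelial adhesion molecule made by PECAM1. The protocol text names a serum-free StemPro34 medium with BMP4, Glutamax, monothioglycerol and antibiotics for differentiation, and mouse embryonic fibroblast feeder layers for the maintenance of the line, and it breaks off before its end. All 8 arrays came from 1 cell line, and the labels call the arrays of a group biological replicates without saying whether they came from separate cultures, so the p-values measure only the spread between these arrays.

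Adhesion GPCRs are surface receptors with a long extracellular part made of adhesion domains, followed by the membrane spans of a G protein-coupled receptor. Most are cut by their own GAIN domain during synthesis, and the short stretch behind the cut can act as a tethered activator when the extracellular part is pulled away by a ligand on a neighbouring cell or in the matrix. Several serve in vessels: ADGRL4 (also called ELTD1) and ADGRF5 (GPR116) are receptors of endothelium, and ADGRA2 (GPR124) works with RECK as a co-receptor for WNT7 in brain vessels. Others are best known from epithelia and the nervous system, among them the CELSR receptors of planar cell polarity and the latrophilins of synapses.

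ADGRF5 and ADGRL4 were the members with the highest rises in sorted cells, and their promoters are shown because both moved in the same direction. The sequences are from RefSeq on GRCh38.p14, with 250 bases before and 50 after the annotated start of transcription, written 5′ to 3′ along the gene. Capitals mark matches to 3 short motifs, each searched on both strands. CCGGAA is a core sequence bound by transcription factors of the ETS family. The same family also binds the core AGGAAG in many vessel genes. A motif of the GATA factors, which serve in blood and endothelium, is AGATAA.
ADGRL4, chr1:79006681-79006980, minus strand: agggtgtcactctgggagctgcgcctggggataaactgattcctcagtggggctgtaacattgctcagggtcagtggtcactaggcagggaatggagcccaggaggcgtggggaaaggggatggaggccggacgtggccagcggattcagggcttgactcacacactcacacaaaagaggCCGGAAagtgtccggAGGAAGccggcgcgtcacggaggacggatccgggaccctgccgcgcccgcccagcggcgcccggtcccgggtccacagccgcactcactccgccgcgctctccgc
ADGRF5, chr6:46954890-46955189, minus strand: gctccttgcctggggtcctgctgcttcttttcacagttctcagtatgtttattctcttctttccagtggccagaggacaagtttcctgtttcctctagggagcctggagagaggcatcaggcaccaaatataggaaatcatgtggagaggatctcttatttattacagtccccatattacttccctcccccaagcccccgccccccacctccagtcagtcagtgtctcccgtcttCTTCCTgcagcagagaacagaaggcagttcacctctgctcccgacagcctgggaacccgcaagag
ADGRF5 second annotated start, chr6:46921889-46922188, minus strand: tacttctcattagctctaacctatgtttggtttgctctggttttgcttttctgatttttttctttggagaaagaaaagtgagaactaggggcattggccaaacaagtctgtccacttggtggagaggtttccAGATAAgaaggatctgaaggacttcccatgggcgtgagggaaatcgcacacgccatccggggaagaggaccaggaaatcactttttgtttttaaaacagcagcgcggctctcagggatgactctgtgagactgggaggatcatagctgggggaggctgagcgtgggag
The ADGRL4 promoter held 1 CCGGAA beginning 70 bases before the start and 1 AGGAAG beginning 55 bases before it. The upstream ADGRF5 promoter held 1 AGGAAG on the opposite strand, with its first printed base 15 bases before the start, and the second ADGRF5 promoter held 1 AGATAA beginning 118 bases before the start. Over the 35116 promoters of this length in the table, CCGGAA was found in 17.2%, AGGAAG in 33.6% and AGATAA in 10.3%. Of the 9 members that differed between sorted cells and day 0, 7 had a promoter in the table, 8 promoters in all, and among these 1 held CCGGAA, 2 held AGGAAG and 1 held AGATAA, all of them in ADGRL4 or ADGRF5 and none overlapping another. These matches describe the letters only and are not evidence of binding.

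The values are probe set intensities, used as log2(intensity + 32) and called log2 intensity below. The array medians lay between 6.92 and 6.97 on this scale, and the number of arrays limits the precision of every value. Endothelial markers were higher in sorted cells for 10 of 10 genes tested, with a mean level of 10.42 to 11.48 on the sorted arrays and 6.89 to 6.99 on the day 0 arrays, and all 8 tested markers of undifferentiated cells were lower. The sort genes KDR and PECAM1 were 23.8-fold and 92.3-fold higher in sorted cells, which the gate selects for and which is no finding. Replicate 1 of day 4 and replicate 1 of day 6 correlated with each other (r = 0.976 across genes, which are not independent replicates) more than with the second array of their own group (0.953 and 0.937). The ratio of 3′ to 5′ signal for GAPDH, a control for RNA integrity, was 1.71 to 1.91 at day 0, 2.15 to 2.22 at day 4, 3.41 to 3.73 at day 6 and 2.41 to 3.08 at day 8, so it differed between groups without overlap. The same ratio for ACTB was 9.18 to 31.0 on the sorted arrays and 8.92 to 10.4 at day 0, which overlap, and it was highest on replicate 1 of day 4 (19.0) and replicate 1 of day 6 (31.0). The part of neither ratio in the results was tested. Markers of fibroblasts and smooth muscle averaged 8.58 to 10.07 on the sorted arrays and 10.70 to 10.73 on the day 0 arrays, and neural and surface ectoderm markers 7.80 to 8.73 and 9.96 to 10, with 6 of 10 and 6 of 9 tested genes lower in sorted cells. Day, differentiation and sorting changed together between day 0 and the sorted groups and cannot be told apart. In these bulk samples fewer cells of a type and less RNA per cell cannot be told apart either.

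Of the 18 measurable receptors 9 differed between the sorted cells and the undifferentiated culture, with steep rises of 2 endothelial receptors and falls of 7 others, among them all 3 CELSR genes. A test required a value over the array median on 2 or more of the 8 arrays, which 18 of the 29 receptor genes met and 11 did not, and none of the 3 noncoding or pseudogene members met it. In the 3 sorted groups combined (the mean of day 4, day 6 and day 8) against day 0, 9 of 18 were called at an adjusted p under 0.05, 2 higher and 7 lower. Over the 13647 genes tested, 30.2% were called in this comparison, 13.4% higher and 16.9% lower. The median absolute change was 0.88 for the 18 receptors and 0.35 for all genes, and the median signed change was -0.16 and -0.01. ADGRF5, ADGRE5, ADGRG2 and, through day 8 alone, ADGRE1 met the filter only through a group in which they were high, so these shares describe the tested members and not the family. By subfamily, calls were made for 3 of 3 CELSR genes and 2 of 4 in subfamily L (ADGRL4 higher, the latrophilin ADGRL1 lower). In subfamily A it was 1 of 2 tested, in G 1 of 3, and in F and V the only tested gene. None of the tested genes of B, D and E (1, 1 and 2 genes) was called.

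Each sorted day on its own gave 8 called receptors against day 0, 2 higher and 6 lower. The background was 18.4% of genes at day 4 (8.52% higher, 9.91% lower), 23.4% at day 6 (9.73% higher, 13.6% lower) and 24.5% at day 8 (10.4% higher, 14.1% lower). ADGRF5, ADGRL4, ADGRG2, CELSR1, CELSR2, ADGRA3 and ADGRL1 were called at all 3 days. CELSR3 was called at day 4 and day 6, and ADGRV1 at day 8. CELSR2, ADGRF5 and ADGRL4 were called at every day whichever array was left out, as was ADGRG2 where it could be tested. CELSR1 and CELSR3 lost each single-day call without either day 0 array, ADGRL1 without replicate 1 of day 0, and ADGRA3 at day 4 without either and at day 8 without replicate 2 of day 0. Replicate 1 of day 4 decided the day 4 calls of ADGRA3 and CELSR3, replicate 1 of day 6 the day 6 call of CELSR3, and replicate 2 of day 8 the day 8 calls of CELSR1 and ADGRL1, the last of which was also lost without replicate 2 of day 0. The 3 comparisons share the day 0 arrays and are not independent of each other. Fewer receptors were called in sorted cells and at each day without either day 0 array, and at day 8 without replicate 2 of day 8. More were called with replicate 1 of day 4 and of day 6 both left out, a setting chosen after the data were seen. The number of all genes called moved in the same direction in these fits. The fits leave 1 array in a group, and without either day 0 array ADGRG2 was not tested. Tested against a minimum change of 1 log2 unit in place of 0, ADGRF5, ADGRL4, ADGRG2 and CELSR2 were the 4 receptors called in sorted cells. Of all 13647 genes tested, 737 were called in this way.

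**Figure D1:**
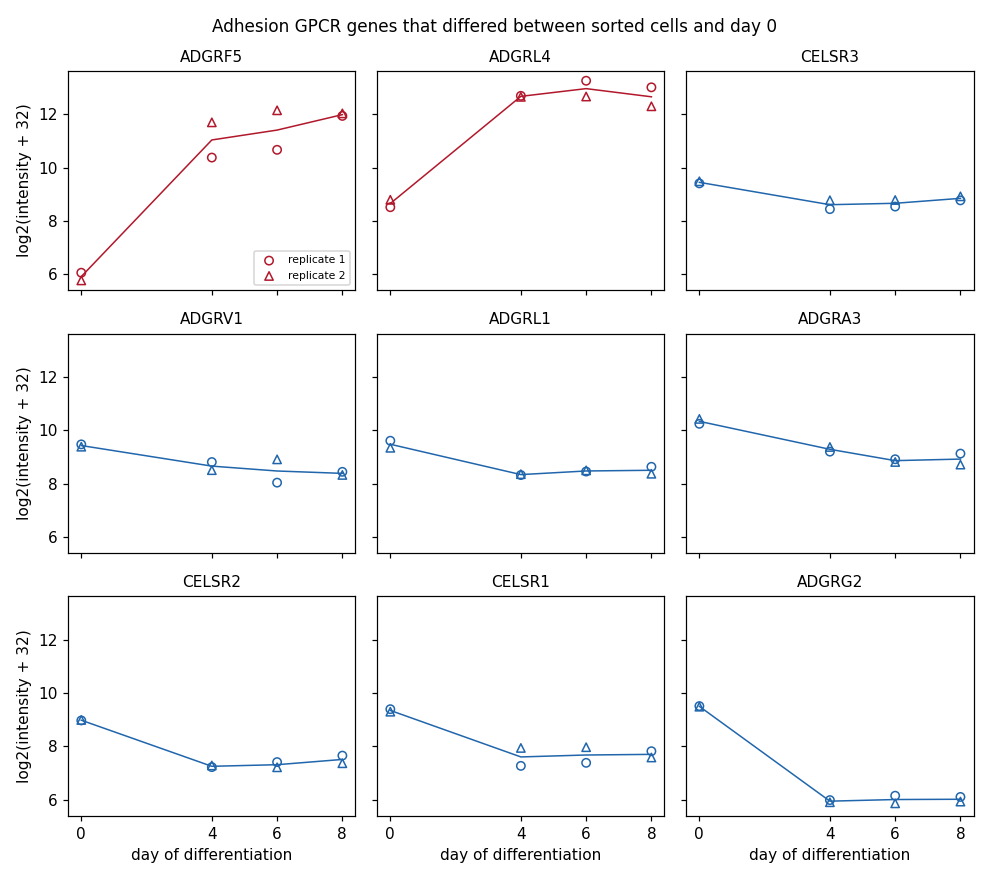
Log2(intensity + 32) of the 9 adhesion GPCR genes called between sorted cells and day 0, by day of differentiation, with a circle for replicate 1, a triangle for replicate 2 and a line through the group means (red, higher in sorted cells; blue, lower). ADGRF5 and ADGRL4 rose by day 4 and the other 7 genes fell; levels of different genes come from different probe sets and are not comparable between panels.

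ADGRL4, an orphan receptor of endothelial cells, was high on every sorted array. Its log2 intensity was 8.51 and 8.79 on day 0, 12.68 and 12.65 on day 4, 13.25 and 12.66 on day 6, and 13.00 and 12.29 on day 8 (probe set 219134_at). All 6 sorted arrays lay above both day 0 arrays with no overlap, and the sorted days overlapped with each other. The mean was 12.76 ± 0.33 (SD, n = 6) in sorted cells and 8.65 ± 0.20 (SD, n = 2) at day 0. The rise was 4.10 ± 0.24 (SE) on the log2 scale, or 17.2-fold, with an adjusted p of 4.75e-05 in limma. By day it was 16.1-fold at day 4, 19.7-fold at day 6 and 15.9-fold at day 8. ADGRL4 was already above the array median on both day 0 arrays, in contrast to ADGRF5.

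ADGRF5, which in mouse lung also restrains surfactant secretion by alveolar cells, was below the array median at day 0. Its log2 intensity was 6.06 and 5.77 on day 0, 10.37 and 11.69 on day 4, 10.66 and 12.14 on day 6, and 11.93 and 12.03 on day 8 (probe set 212950_at). The sorted arrays were all far above day 0, and replicate 1 of day 4 and of day 6 were the 2 lowest of them. Sorted cells averaged 11.47 ± 0.76 (SD, n = 6) and day 0 cells 5.92 ± 0.20 (SD, n = 2). The rise was 5.55 ± 0.46 (SE), or 47.0-fold, with an adjusted p of 0.000218 in limma, and it was 34.7-fold at day 4, 44.8-fold at day 6 and 66.8-fold at day 8. Because day 0 was below the median the fold depends on the offset, with a log2 change of 6.59 for the smaller and 4.23 for the larger offset tried. A second ADGRF5 probe set rose by 3.68 ± 0.58 (SE) with an adjusted p of 0.00462 in limma over all probe sets, while the antisense gene ADGRF5-AS1 stayed between 5.75 and 5.93 on all 8 arrays, below the median. Neither rise lost its call in any alternative run, ADGRL4 with a log2 change between 3.81 and 4.24 and ADGRF5 between 4.23 and 6.59.

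ADGRG2, known as an epididymal receptor needed for fluid reabsorption in the male tract, showed the opposite pattern. The gene read 9.51 and 9.49 on day 0, 5.99 and 5.91 on day 4, 6.16 and 5.87 on day 6, and 6.11 and 5.94 on day 8 (probe set 206002_at). It was above the array median on both day 0 arrays and on none of the 6 sorted arrays, and the replicates of each group lay close together. The fall was -3.51 ± 0.10 (SE) on the log2 scale, 11.4-fold lower in sorted cells, with an adjusted p of 2.12e-06 in limma. At day 4, day 6 and day 8 the gene was 11.7-fold, 11.2-fold and 11.1-fold lower than at day 0. The sorted signal lies in the range of the untested receptors, so the fold depends on the offset, with a log2 change of -4.41 to -2.36 over the alternatives. Without either day 0 array ADGRG2 no longer met the filter and was not tested.

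The 3 CELSR receptors, atypical cadherins that carry planar cell polarity signals between neighbouring cells, were all lower in sorted cells. CELSR1 read 9.40 and 9.30 on day 0, 7.27 and 7.94 on day 4, 7.39 and 7.97 on day 6, and 7.82 and 7.59 on day 8 (probe set 41660_at). CELSR2 read 8.97 and 8.99 on day 0, 7.23 and 7.29 on day 4, 7.41 and 7.22 on day 6, and 7.66 and 7.37 on day 8 (probe set 36499_at). CELSR3 read 9.41 and 9.48 on day 0, 8.44 and 8.78 on day 4, 8.54 and 8.78 on day 6, and 8.77 and 8.92 on day 8 (probe set 40020_at). No sorted array reached the day 0 range for any of the 3 genes. CELSR1, needed for neural tube closure in mouse, was 3.21-fold lower (-1.69 ± 0.23 SE, adjusted p 0.00195 in limma). CELSR2, which in mouse acts with CELSR3 in the cilia of ependymal cells, was 3.07-fold lower (-1.62 ± 0.12 SE, adjusted p 0.000135 in limma). CELSR3, known for its role in axon tracts, had the smallest change of the 3, a difference that was not tested, and was 1.67-fold lower (-0.74 ± 0.15 SE, adjusted p 0.012 in limma). At day 8 alone CELSR3 was not called (-0.60 ± 0.19 SE, adjusted p 0.0594 in limma), and the change of day 8 against day 4 was 0.24 with an adjusted p of 0.75 in limma. That day 8 change of -0.60 against day 0 uses no array of day 4 or day 6. Leaving out 1 of those arrays therefore could not move it and says nothing on how stable it is. The CELSR3 call in sorted cells was lost without replicate 1 or without replicate 2 of day 0. With all probe sets of CELSR1 averaged its log2 change was -0.52, since its 2 other probe sets were below the array median on every array.

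ADGRA3, ADGRL1 and ADGRV1 completed the receptors that were lower in sorted cells. ADGRA3 (GPR125), an orphan receptor known as a marker of spermatogonial progenitors in mouse, read 10.24 and 10.43 on day 0, 9.20 and 9.38 on day 4, 8.92 and 8.81 on day 6, and 9.13 and 8.72 on day 8 (probe set 210473_s_at). It was 2.48-fold lower in sorted cells (-1.31 ± 0.16 SE, adjusted p 0.00142 in limma), and with its 3 probe sets averaged the log2 change was -0.77. ADGRL1, a latrophilin of synapses that binds teneurins, read 9.61 and 9.34 on day 0, 8.32 and 8.36 on day 4, 8.46 and 8.50 on day 6, and 8.63 and 8.37 on day 8 (probe set 47560_at). The sorted arrays of both genes lay below their day 0 arrays without overlap. For ADGRL1 the fall was 2.05-fold (-1.04 ± 0.14 SE, adjusted p 0.00201 in limma), and this call was lost without replicate 1 of day 0. ADGRV1, the very large receptor of hair cell stereocilia whose loss causes a form of Usher syndrome, read 9.47 and 9.39 on day 0, 8.81 and 8.51 on day 4, 8.04 and 8.91 on day 6, and 8.44 and 8.33 on day 8 (probe set 223582_at). It was 1.9-fold lower in sorted cells (-0.92 ± 0.24 SE, adjusted p 0.0262 in limma) and was called by day only at day 8 (adjusted p 0.12, 0.0557 and 0.0407 at day 4, day 6 and day 8 in limma). The ADGRV1 call in sorted cells was lost without either day 0 array and without either day 8 array. The day 8 call was lost without the same arrays and also with no filter. With its probe sets averaged ADGRV1 did not meet the filter and was not tested. The ADGRV1 change at day 4 was -0.77, and as it uses no day 6 array, leaving one out could not move it. At day 6 the ADGRV1 change was -0.95, and -1.39 without replicate 2 of that day. With replicate 1 of day 4 and of day 6 both left out it was -0.52. The lower levels of the neural, ectoderm and fibroblast markers named above accompanied these falls, and their part in them was not tested.

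**Figure D2:**
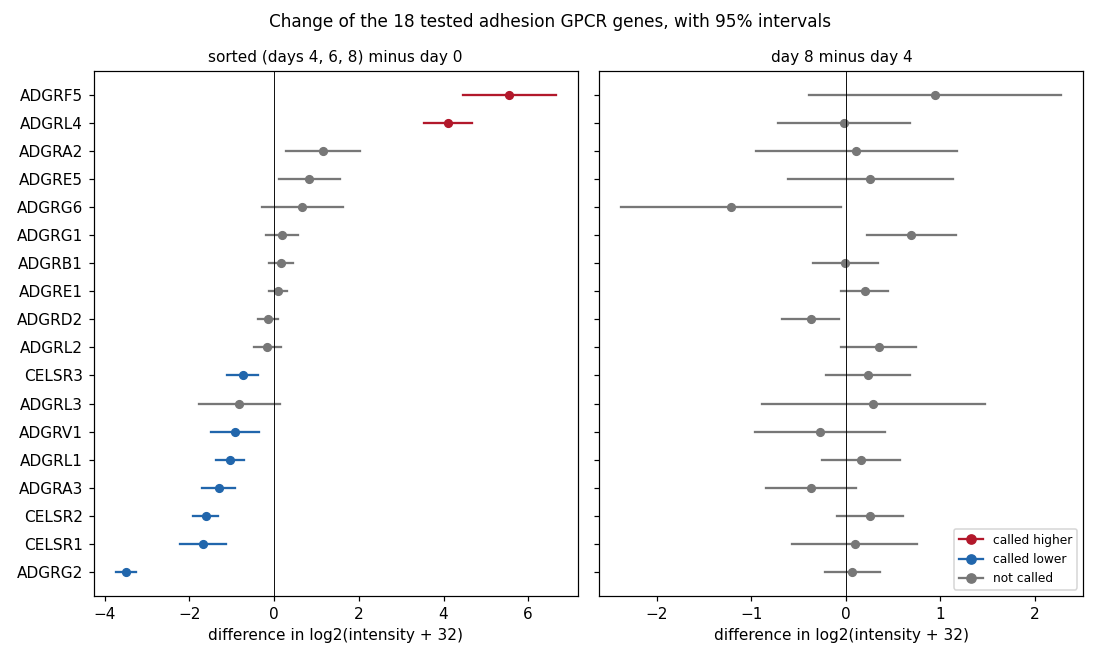
Difference in log2(intensity + 32) for the 18 tested adhesion GPCR genes, sorted cells minus day 0 on the left and day 8 minus day 4 on the right, with points for the change and lines for its 95% interval from the limma fit before adjustment for many tests. In the left panel 2 genes were called higher and 7 lower; in the right panel none was called, and the intervals of ADGRG1, ADGRG6 and ADGRD2 do not reach 0.

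Another 9 tested receptors were not called in sorted cells against day 0, and some of them varied between the replicates of the sorted days. ADGRA2, the WNT7 co-receptor of brain vessels, read 7.87 and 7.80 on day 0, 9.29 and 9.03 on day 4, 7.84 and 9.23 on day 6, and 9.61 and 8.93 on day 8. Replicate 1 of day 6 lay within the day 0 range and the other 5 sorted arrays above it. The change was 1.15 ± 0.37 (SE) with an adjusted p of 0.0535 in limma. In alternative fits on all 8 arrays ADGRA2 was called in sorted cells after quantile normalization (adjusted p 0.0489 in limma). It was also called with the filter at the upper quartile (0.0457), and in no other alternative that kept all arrays. Without replicate 1 and without replicate 2 of day 6 the change was 1.38 and 0.92. The day 6 arrays lay furthest apart (SD 0.98). Leaving out either takes that spread out of the fit, which then cannot settle the call. ADGRE5 (CD97), a receptor of leukocytes that binds CD55, read 6.87 and 6.81 on day 0, 7.30 and 7.87 on day 4, 6.998 and 8.12 on day 6, and 7.67 and 8.03 on day 8. Its sorted arrays did not overlap with day 0, and its change of 0.83 ± 0.30 (SE) had an adjusted p of 0.0814 in limma. Without replicate 1 and without replicate 2 of day 6 the change was 1.015 and 0.64, with the same limit (day 6 SD 0.79). With the replicate number as a block, an alternative fit, ADGRE5 was called (adjusted p 0.0245 in limma). The mean of 9 myeloid markers was 6.72 to 7.60 in sorted cells and 6.42 to 6.45 at day 0, and 2 of the 5 that were tested were higher in sorted cells and 0 lower. These were LYZ, which makes lysozyme (5.33-fold, adjusted p 0.0452 in limma), and FCER1G, an Fc receptor chain (1.71-fold, adjusted p 0.00808 in limma), while PTPRC, CD14 and SPI1 lay below the array median on all 8 arrays. LYZ read 11.22 and 7.99 on day 8, and MPO, a granule enzyme that was not called, 9.80 and 6.86. These markers were named after their values were seen, and their part in the level of ADGRE5 was not tested.

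ADGRG6 (GPR126), required for myelination by Schwann cells, and ADGRL3, a latrophilin that binds FLRT3 and teneurins, differed between the 2 replicates of each sorted day. ADGRG6 read 8.04 and 8.03 on day 0, 8.69 and 9.98 on day 4, 8.13 and 9.16 on day 6, and 7.84 and 8.41 on day 8, so that replicate 2 was the higher array at each sorted day. ADGRL3 read 8.83 and 8.72 on day 0, 8.16 and 7.10 on day 4, 8.95 and 7.70 on day 6, and 8.27 and 7.57 on day 8, with replicate 1 the higher array at each sorted day. Neither was called in sorted cells (0.67 ± 0.40 SE with an adjusted p of 0.258 for ADGRG6, -0.82 ± 0.41 SE with an adjusted p of 0.179 for ADGRL3, both in limma). With the replicate number as a block, an alternative fit, ADGRL3 was called in sorted cells (adjusted p 0.0308 in limma) and ADGRG6 was not. That fit called both at day 4 (adjusted p 0.0262 for ADGRG6 and 0.0277 for ADGRL3). The labels give the replicate numbers no shared source. At day 4 ADGRG6 changed by 1.30, and by 1.94 without replicate 1 of that day. Without replicate 2 the day 4 change rests on 8.69 against 8.04 and 8.03 at day 0 and is smaller. At day 6 ADGRL3 changed by -0.455, and by 0.17 without replicate 2 of that day, and at day 8 ADGRG6 changed by 0.09, and by -0.19 without replicate 2 of that day, none of them called. With replicate 1 of day 4 and of day 6 left out the changes in sorted cells were 1.05 for ADGRG6 and -1.21 for ADGRL3. The ADGRL3 change at day 6 was then -1.08. The spread of those pairs is then out of the fit, so no call is drawn from it. A second ADGRL3 probe set was lower in sorted cells (-0.86 ± 0.16 SE, adjusted p 0.00819 in limma over all probe sets), and another showed a change of -0.01. Markers of yolk sac and hepatic endoderm averaged 8.05 and 10.59 on the 2 arrays of day 4 and 6.82 and 8.90 on those of day 6, and fibroblast markers 10.07 and 8.84 on day 4 and 9.86 and 8.58 on day 6, in replicate order, and their part in the spread of ADGRG6 and ADGRL3 was not tested.

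ADGRL2, the remaining latrophilin, read 10.86 to 11.38 on the sorted arrays and 11.36 to 11.37 at day 0, a change of -0.17 with a 95% interval of -0.49 to 0.16. ADGRG1 (GPR56), which is present on blood stem cells and is known for its role in the developing cortex, changed by 0.19 with an interval of -0.19 to 0.57. ADGRB1 (BAI1), an engulfment receptor that works through ELMO and DOCK, changed by 0.16 with an interval of -0.12 to 0.45. For ADGRD2, an orphan receptor, the change was -0.14 (-0.39 to 0.10), and for ADGRE1, the human counterpart of the mouse macrophage marker F4/80, it was 0.09 (-0.11 to 0.29). These intervals are for single genes and for the mean of the sorted days, and all 5 lie within 1 log2 unit of 0. By day, ADGRG1 changed by -0.16 at day 4, 0.19 at day 6 and 0.54 (0.07 to 1.01) at day 8 against day 0.

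**Figure D3:**
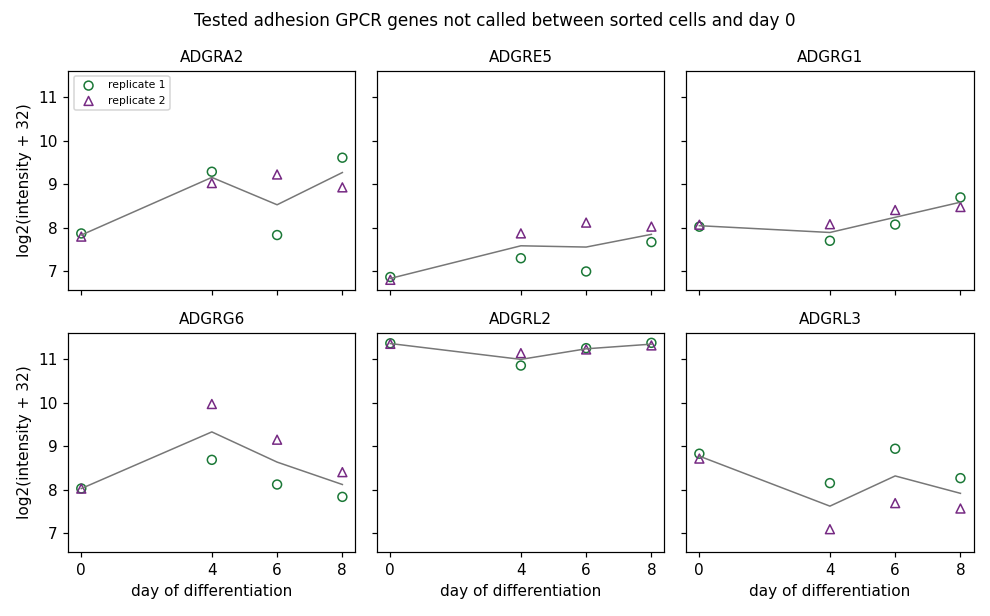
Log2(intensity + 32) of 6 tested adhesion GPCR genes not called between sorted cells and day 0, by day of differentiation, with circles for replicate 1, triangles for replicate 2 and a line through the group means. ADGRA2 at day 6 and ADGRG6, ADGRE5 and ADGRL3 at day 4 and day 6 lie apart between replicates, and ADGRL2 stays between 10.86 and 11.38; panels are not comparable in level.

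Within the gate, from day 4 to day 8, no receptor was called. The counts were 0 of 18 for day 6 against day 4, for day 8 against day 6 and for day 8 against day 4, with a background of 0% of the 13647 genes in each by limma. Without adjustment, p was under 0.05 for 722, 338 and 887 genes in these comparisons, where 682.4 would be expected from the threshold alone, and for 0, 0 and 3 of the receptors. The 3 were ADGRG1 (0.70 ± 0.20 SE, unadjusted p 0.00986), ADGRD2 (-0.37 ± 0.13 SE, unadjusted p 0.0211) and ADGRG6 (-1.21 ± 0.49 SE, unadjusted p 0.0437), each with an adjusted p of 0.724 in limma for day 8 against day 4. ADGRG1 averaged 8.59 ± 0.16 at day 8 and 7.89 ± 0.27 at day 4 (SD, n = 2 each) by the probe set used. Its other probe set, also above the array median on all 8 arrays, did not show this difference. There day 8 against day 4 gave 0.055 ± 0.112 (SE), with an adjusted p of 0.887 in limma over all probe sets. Over the same days the mean of 7 erythroid markers was 8.62 to 9.06 at day 8 and 7.11 to 7.37 at day 4, and that of 6 megakaryocyte and platelet markers 8.20 to 9.77 and 7.36 to 7.66. Of those tested, 5 of 6 and 3 of 5 were higher at day 8 than at day 0, and none was called between day 8 and day 4. HBE1, the embryonic globin gene, read 13.13 and 12.66 on day 8 and 7.68 and 8.03 on day 4. The part of these markers in the values of the ADGRG1 probe set used was not tested. The 2 endothelial receptors showed no called change either: ADGRF5 changed by 0.95 (95% interval -0.39 to 2.29) and ADGRL4 by -0.02 (-0.72 to 0.69) for day 8 against day 4. The interval of ADGRF5 reaches above 1 log2 unit and that of ADGRL4 does not.

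The 11 receptor genes that did not meet the filter were ADGRA1, ADGRB2, ADGRB3, ADGRD1, ADGRE2, ADGRE3, ADGRF1, ADGRF4, ADGRG3, ADGRG4 and ADGRG7. They include the brain receptors ADGRB2 and ADGRB3 and the leukocyte receptors ADGRE2, ADGRE3 and ADGRG3. Their log2 intensities lay between 5.47 and 7.08, and 10 of the 11 were above the array median on no array, with ADGRG3 above it on 1. The widest range of one of these genes over the 8 arrays was 0.89, for ADGRD1. No detection calls were used, so these values do not separate a low level from none. In contrast, 13 receptor genes were above the median on all 8 arrays: ADGRA2, ADGRA3, ADGRB1, ADGRG1, ADGRG6, ADGRL1, ADGRL2, ADGRL3, ADGRL4, ADGRV1, CELSR1, CELSR2 and CELSR3.

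Several probe sets existed for 17 of the receptor genes, 60 probe sets for the 32 members in all. For CELSR2 and CELSR3 the second probe set was also lower in sorted cells (-1.24 ± 0.15 SE and -0.63 ± 0.16 SE, adjusted p 0.00168 and 0.029 in limma over all probe sets). A second probe set of ADGRA3 was called lower too (-0.90 ± 0.27 SE, adjusted p 0.0475). For ADGRL1 the 2 other probe sets changed by -0.38 and -0.39, against -1.04 for the one used, and 1 of them was called (adjusted p 0.0372). The other 4 probe sets of ADGRV1 were below the median on every array and gave changes of -0.34 to -0.01. Size therefore differed between probe sets of a gene, while direction was shared by every probe set that met the filter for ADGRF5, ADGRA3, ADGRL1, CELSR2 and CELSR3.

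**Figure D4:**
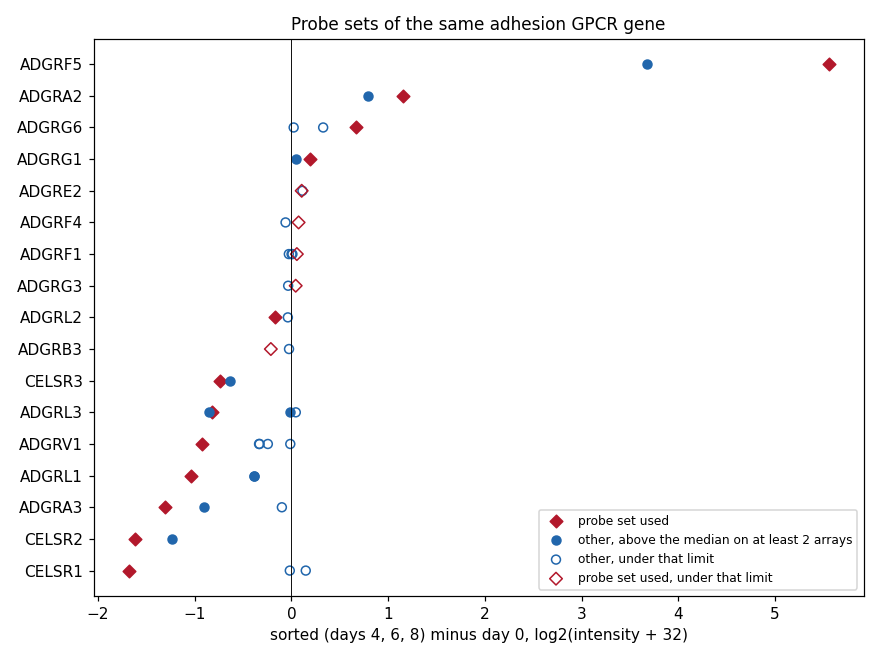
Change in log2(intensity + 32), sorted cells minus day 0, of every probe set of the 17 adhesion GPCR genes with more than 1, with diamonds for the probe set used, filled circles for others over the array median on 2 or more arrays, and open symbols for those under that limit. Other probe sets that met the limit lie on the same side of 0 as the one used, closer to 0 in each gene but ADGRL3.

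Genes known as ligands, co-receptors, polarity partners or effectors of these receptors are given here for 10 lists with 70 genes, of which 55 were tested. In sorted cells against day 0, 13 of the 55 were higher and 11 lower, against 13.4% and 16.9% of all genes, and at day 8 against day 0 these counts were 13 and 9. None of the 55 was called between the sorted days. The ligands of latrophilins were lower for 3 of 5 tested genes and higher for 1, with a median change of -1.39 where all genes had -0.01. TENM3 (4.04-fold, adjusted p 0.00014) and TENM2 (3.86-fold, adjusted p 0.00269), teneurins that bind latrophilins across the cell contact, were lower in sorted cells, as was TENM4 (2.63-fold), named after its value was seen. FLRT2, a leucine-rich repeat ligand, was 2.27-fold higher (adjusted p 0.0035 in limma, as for the teneurins). FLRT2 averaged 10.99 ± 0.29 in sorted cells and 9.81 ± 0.10 at day 0 (SD, n = 6 and 2).

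The polarity partners of the CELSR receptors were lower for 4 of 14 tested genes and higher for 1, with a median change of -0.23. PRICKLE2 (3.14-fold, adjusted p 0.000325), a cytoplasmic polarity protein, INTU (2.44-fold, adjusted p 0.00482), a polarity effector of cilia, and FZD3 (2.64-fold, adjusted p 0.00534), a frizzled receptor of axon guidance, were lower in sorted cells by limma. VANGL2, a core polarity membrane protein, was also lower (1.76-fold), and ANKRD6 was higher (1.75-fold), both named after their values were seen. The other 9 tested partners, among them all 3 dishevelled genes and SCRIB, were not called.

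In the WNT7 receptor complex of ADGRA2 2 of 4 tested genes were higher, with a median change of 0.96. RECK, the membrane-anchored partner that holds WNT7, averaged 11.31 ± 0.24 in sorted cells and 9.13 ± 0.14 at day 0 (SD, n = 6 and 2) and was 4.54-fold higher (adjusted p 0.000346 in limma). FZD4, the frizzled receptor of the complex, was 3.71-fold higher (adjusted p 0.00208 in limma). The ligands WNT7A and WNT7B read 6.15 to 6.55 over all 8 arrays, below the array median, and were not tested.

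The surface ligands of ADGRE5 were higher for 2 of 6 tested genes and lower for 1 (median change 0.35). ITGA5, a subunit of the fibronectin receptor, was 4.13-fold higher (adjusted p 0.00508), THY1 was 1.87-fold higher (adjusted p 0.0115), and CD55, the complement regulator first described as the ligand, was 1.96-fold lower (adjusted p 0.00557), all in limma. Among the matrix and membrane ligands of ADGRG1 and ADGRG6, 1 of 6 was higher and 1 lower (median change 0.89). PRNP, the prion protein that activates ADGRG6 in mouse, was 1.72-fold higher (adjusted p 0.0142), and LAMA2, the laminin chain of Schwann cell basement membrane, was 2.11-fold lower (adjusted p 0.000794). CD81, a tetraspanin that links ADGRG1 to G proteins, was higher (2.39-fold, adjusted p 0.0301) as 1 of 2 tested, and neither of the 2 tested ligands of the ADGRB receptors was called. The USH2 partners of ADGRV1 had 1 of 2 tested genes higher, MYO7A, the myosin of hair cell stereocilia (7.91-fold, adjusted p 0.00136 in limma).

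Of 9 G protein subunit genes downstream of the receptors 2 were higher, GNAI1 (3.06-fold, adjusted p 0.000413) and GNA12 (1.36-fold, adjusted p 0.0455), and 1 was lower, GNAZ (1.63-fold, adjusted p 0.0196), with a median change of 0.35. Among the receptor kinases and arrestins that end G protein signalling, ARRB1 (8.54-fold, adjusted p 0.000111) and GRK5 (5.84-fold, adjusted p 0.00322) were higher and GRK3 was lower (3.03-fold, adjusted p 0.00436), 3 of 5 tested. ARRB1 averaged 11.86 ± 0.35 in sorted cells and 8.76 ± 0.18 at day 0 (SD, n = 6 and 2). These partners serve many receptors besides the adhesion family.

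**Figure D5:**
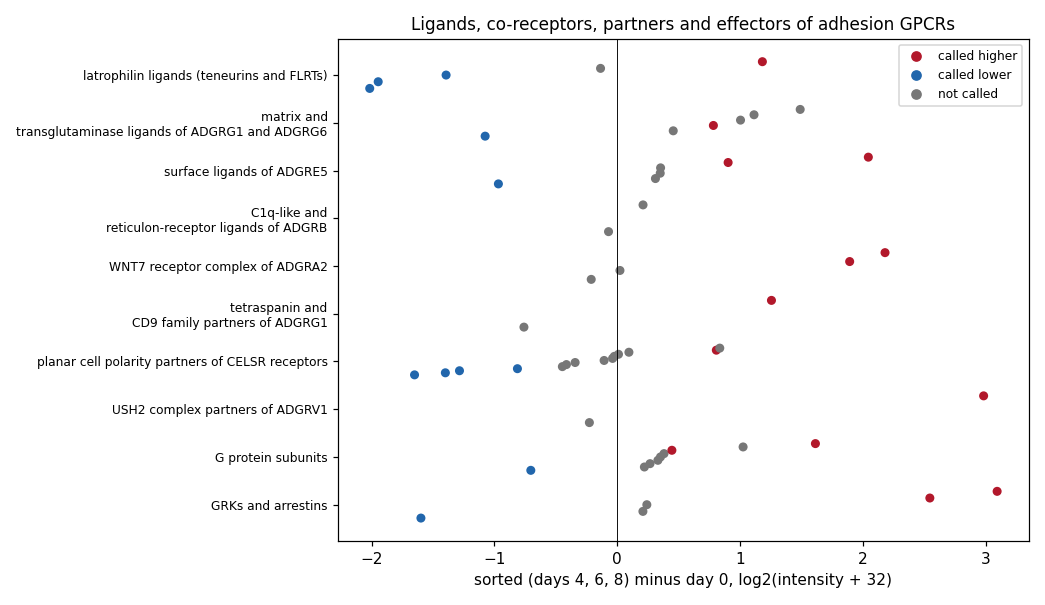
Change in log2(intensity + 32), sorted cells minus day 0, of the 55 tested genes in 10 lists of ligands, co-receptors, partners and effectors of adhesion GPCRs, with 1 point per gene (red, called higher; blue, called lower; grey, not called). The tested teneurins, 4 polarity partners, GRK3, LAMA2, CD55 and GNAZ were called lower and lie to the left. ARRB1, MYO7A, GRK5, RECK and ITGA5 lie furthest to the right.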

How the data were processed

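RNA of H9 cells was measured on 8 Affymetrix expression arrays, 2 per group. The authors deposited 1 linear intensity per probe set and array; the tool named per the submitters' processing notes is MAS5, whose version is not given in the sources used here, and the exact summary and scaling steps are not settled. Titles gave the groups. In 3 samples the source name reads day 4 where the title, the description and the stage read day 6 or day 8, and the title was followed.

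Intensities were transformed as log2(intensity + 32) without further scaling, so folds are on that scale and understate changes of dim genes. The platform annotation gave 1 symbol for 41091 of 54675 probe sets. Each gene was represented by its probe set of highest mean log2 intensity, with _x_at probe sets as a last resort. A gene entered the test if it exceeded the array median, taken without control probe sets, on 2 or more of the 8 arrays, as 13647 of 19775 did. Tests used limma 3.58.1 (R 4.3.3), with 1 fit over all 8 arrays with a term per group, eBayes with trend, two-sided, with Benjamini-Hochberg adjustment over all genes tested and calls at 0.05. The SE of a change uses the spread within all 4 groups. All adjusted p-values come from this fit unless another is named. The fit was tested on simulated data.

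Every member was named, with values per array for each called one. Up to 3 called genes per partner list, those with the smallest adjusted p, were named, and KDR and PECAM1. Members, partner lists and cell type markers were chosen with earlier results of these data known. 1 further list of effector genes is not reported here, and the totals over partner lists leave it out. Sequences came from a RefSeq promoter table; no protein sequences were used here. Replicate numbers were not taken to pair the samples, since the labels give them no shared source and not every pair of groups correlated: the deviations of replicate 1 correlated at -0.025 to 0.024 between day 0 and the sorted days, and at 0.19 to 0.60 among the sorted days. Alternatives were other offsets, filters, normalizations and probe set rules, eBayes without trend, a minimum change, a replicate block, fits on the compared groups alone, and each array left out.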

Additional observations from a re-analysis of the deposited data

How the results depend on the processing

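Counts of called receptors were 9 in sorted cells and 8 at each day against day 0. They stayed within 1.5 times of these under smaller and larger offsets, quantile normalization, median centring, no filter or one at the upper quartile. The same held for probe sets averaged or taken singly and for eBayes without trend. With probe sets taken singly, the one of smallest p stood for each receptor in each comparison, which favours calls. With a minimum log2 change of 1 the counts were 4 in sorted cells, 4 at day 4, 4 at day 6 and 3 at day 8. Over all 13647 genes, 737, 527, 589 and 629 were called in that setting, against 4125, 2516, 3187 and 3345 in the main fit. With only the arrays of the groups compared the count at day 8 was 14, where 6784 of all 13647 genes were called. With replicate 1 of day 4 and of day 6 both left out, added after the data were seen, the counts at day 4, day 6 and day 8 were 13, 13 and 14. With each array left out in turn they ranged from 5 to 11 in sorted cells, 3 to 10 at day 4, 4 to 9 at day 6 and 3 to 11 at day 8; the lone array left in a group is then assumed to vary like the other groups. The counts between sorted days were 0 in every setting. The replicate number served as a block only as an alternative, since the numbers share no stated culture. With this replicate block the counts were 11 in sorted cells and 10, 8 and 10 at day 4, day 6 and day 8. Over all 13647 genes they were 4861, 3039, 3874 and 4250. The block ended no call and added those of ADGRE5 (adjusted p 0.0245) and ADGRL3 (0.0308) in sorted cells, ADGRG6 (0.0262) and ADGRL3 (0.0277) at day 4, and ADGRE5 (0.028) and CELSR3 (0.0352) at day 8, all in limma. Of the values of single receptors under alternatives, 2394 kept direction and side of the threshold, 52 lost a call and 63 gained one, and no value with a call turned direction. Another 74 turned direction with no call in either setting, 60 of them between sorted days and 68 with arrays left out. A receptor that no longer met the filter is in none of these classes, such as ADGRG2 without either day 0 array. ADGRV1 with probe sets averaged is left out in the same way. The cause of these shifts was not tested. Leaving out 1 array of a pair lowers the number of arrays and also takes the spread of that pair out of the fit. Signal over background limits ADGRF5 at day 0 and ADGRG2 in sorted cells.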
